A study of Mus musculus with 3 samples.

Results

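The cathepsin proteases described here are the products of 10 mouse genes, Ctsa, Ctsb, Ctsc, Ctsd, Ctse, Ctsh, Ctsk, Ctsl, Ctss and Ctsz, taken by gene symbol from the 55536 annotated genes, of which 22015 are nuclear protein-coding genes. All 10 symbols had a match in the annotation. Gm49369, a gene annotated on the same strand across the 3′ end of Ctsd, is followed beside them because reads from the exons that both contain cannot be divided with confidence.

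Cathepsins are proteases of endosomes and lysosomes, made as inactive precursors that are carried to the lysosome, mostly on mannose 6-phosphate receptors, and cut there into active enzymes. Ctsb, Ctsc, Ctsh, Ctsk, Ctsl, Ctss and Ctsz encode cysteine proteases, Ctsd and Ctse aspartic proteases, and Ctsa a serine carboxypeptidase. In macrophages they degrade engulfed and endogenous protein, and some of them process antigens and the invariant chain for presentation on MHC class II.

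Total RNA depleted of ribosomal RNA was sequenced from the cytosolic fraction of primary macrophages grown from the bone marrow of C57BL/6J mice. The cells were stimulated with lipid A at 100 ng/ml for 25 min. Lipid A is the lipid part of bacterial lipopolysaccharide and activates Toll-like receptor 4. The 3 libraries, each from 1 µg of RNA, are labelled biological replicates 1 to 3 and make up the only group, so every library had the same treatment and no unstimulated library enters a comparison. Age and sex were not collected, and all 3 libraries carry 1 donor record, so the spread given below covers these samples and may be partly technical. Annotated genes held 52956907, 43547422 and 38608503 expected counts in replicates 1, 2 and 3.

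The macrophage label matched the marker genes, with all 8 macrophage markers at 1 TPM or more in every library. TPM is a level scaled for transcript length and for the sum over all targets of a library. Lyz2, which encodes lysozyme, stood at 4945 ± 1494 TPM (SD, n = 3) and Csf1r, the receptor for the growth factor CSF1, at 299 ± 58.2 TPM. None of the 8 dendritic cell, 8 T and NK cell, 6 B cell and 6 mast cell markers reached 1 TPM in every library. Of 10 neutrophil markers, 4 did, while Ly6g, which defines mature neutrophils, had 0, 2 and 0 counts. The neutrophil list had a summed level of 34.3, 56.5 and 40.5 TPM over the whole list in replicates 1, 2 and 3, against 5912, 5893 and 9077 TPM for the macrophage list. Their part in the cathepsin values was not tested. Nuclear protein-coding genes took 22.7% of all TPM in replicate 1, 22.9% in replicate 2 and 29.8% in replicate 3, so a gene with an unchanged place among coding genes has a higher TPM in replicate 3.

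Annotated transcripts of 4 members differ at the short stretches of sequence shown here, which identify the forms whose shares are given further below. They also differ elsewhere: Ctsd-202 has 181 noncoding bases in exon 1 that Ctsd-201 lacks, and Ctsh-201 has 271 noncoding bases in exon 1 that Ctsh-202 lacks. The stretches are in mm10 coordinates, from the GENCODE M21 transcripts. Ctsd-202 and Ctsd-201, both protein-coding, use different ends of exon 6: Ctsd-202 keeps 18 coding bases at chr7:142377333-142377350 on the minus strand, in capitals here with 24 coding bases on each side.
Ctsd-202: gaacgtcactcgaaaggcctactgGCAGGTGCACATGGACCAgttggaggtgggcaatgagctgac
Ctsd-201: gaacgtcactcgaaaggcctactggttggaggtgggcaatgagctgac
The 18 bases are a multiple of 3 and leave the reading frame intact. Both transcripts of Gm49369 have the longer exon, of 123 bases, that Ctsd-202 has.

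Ctss-201 and Ctss-202 differ inside the coding region by 3 bases at the start of exon 2, chr3:95529434-95529436 on the plus strand, in capitals here.
Ctss-201: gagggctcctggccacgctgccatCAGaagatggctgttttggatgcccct
Ctss-202: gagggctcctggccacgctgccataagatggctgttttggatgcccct
Ctsh-202, annotated as a target of nonsense-mediated decay, lacks exon 3 of Ctsh-201, 106 coding bases at chr9:90061519-90061624 on the plus strand. In the Ctsh-201 sequence the capitals mark that exon, and in the Ctsh-202 sequence they mark the annotated stop codon.
Ctsh-201: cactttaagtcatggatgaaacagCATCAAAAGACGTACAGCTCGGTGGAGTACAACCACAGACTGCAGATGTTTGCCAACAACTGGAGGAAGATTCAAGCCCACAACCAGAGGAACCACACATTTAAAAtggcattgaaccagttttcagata
Ctsh-202: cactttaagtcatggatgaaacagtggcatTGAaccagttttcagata
The exon is not a multiple of 3, and the stop codon follows 6 coding bases after the new junction.

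Ctsb-202, annotated as a retained intron, begins with 90 bases of intron at chr14:63135518-63135607 on the plus strand, in capitals here, and then continues into exons of the protein-coding transcript Ctsb-201.
Ctsb-202: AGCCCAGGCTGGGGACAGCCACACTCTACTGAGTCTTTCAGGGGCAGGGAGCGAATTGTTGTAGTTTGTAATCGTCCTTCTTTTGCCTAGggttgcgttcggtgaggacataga
Ctsb-202 has 801 bases, and of its 771 overlapping words of 31 bases 88.6% were shared with Ctsb-201. For Ctsd-201 the share held in common with Ctsd-202 was 98.5%, which left 29 words of its own. The corresponding share was 97.5% for Ctss-201 against Ctss-202 and 97.5% for Ctsh-202 against Ctsh-201. Read in the direction of the transcripts, no word of 31 bases was shared between any of the 10 cathepsin genes. Reads of that length that match exactly in that direction could not be exchanged among them. Matches to the opposite strand were not compared among the 10. Words were shared, on either strand, with genes outside the set: 28.2% of those of Ctsl, 14.6% of Ctsa and 13.0% of Ctsb. For the other members this share was 1.71% or less, leaving aside Gm49369.

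Ctsd and Ctsb had the 2 highest levels of the cathepsin genes, in ranks 5 and 6 among nuclear protein-coding genes by mean TPM. By library, Ctsb ranked 8, 7 and 6 in replicates 1, 2 and 3. Ctsd and Ctsb together made up 75.6 ± 1.01% of the summed TPM of the 10 genes. Ctss, Ctsz, Ctsa, Ctsl, Ctsh and Ctsc followed in that order, and Ctsk and Ctse were near or below 1 TPM. In bulk RNA, fewer cells that express a gene and less RNA per cell cannot be told apart.

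Of the 10 genes, 8 reached 1 TPM or more in every library, where 41.3% of nuclear protein-coding genes did. The 10 genes summed to 3.58, 3.74 and 3.58% of the TPM of nuclear protein-coding genes in replicates 1, 2 and 3, or 3.63 ± 0.09% (SD, n = 3). Cysteine cathepsins held 50.3 ± 2.25% of the summed cathepsin TPM, aspartic cathepsins 45.5 ± 2.02% and the serine carboxypeptidase Ctsa 4.22 ± 0.27%. In TPM the cysteine share was the higher in each library, and in counts, which do not take length into account, it was 61.9 ± 0.57% against 35.1 ± 0.59%. The order in TPM depends on the read-through gene, and in replicate 1 also on transcripts that are not protein-coding. Over protein-coding transcripts alone, the aspartic sum was the higher in replicate 1, with Ctsd at 3832 TPM and Ctsb at 2211 TPM. The cysteine sum stayed the higher in replicates 2 and 3. The cysteine genes summed to 3921, 4263 and 5627 TPM. Ctsd with Gm49369 added came to 4570, 5112 and 4715 TPM, which is the higher in replicates 1 and 2. Gm49369 is annotated as short, so it weighs more in that TPM sum than in counts. In counts, the cysteine sum was the higher in each library with Gm49369 added too.

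**Figure D1:**
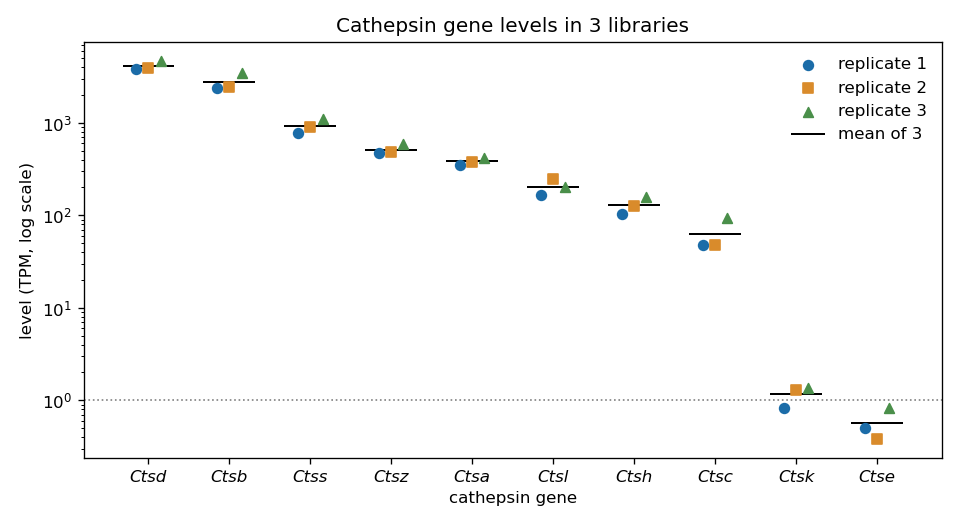
TPM of each cathepsin gene (log axis) in replicates 1 (circles), 2 (squares) and 3 (triangles), with the mean of the 3 as a bar and 1 TPM as a dotted line. Ctsd and Ctsb stand at the top, 8 genes lie above 1 TPM in every library, and Ctsk and Ctse lie near or below it.

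Among the aspartic proteases, Ctsd, the main aspartic protease of the lysosome and an activator of other lysosomal precursors, stood at 3842, 3902 and 4620 TPM in replicates 1, 2 and 3, or 4121 ± 433 TPM (SD, n = 3). It ranked 5 among nuclear protein-coding genes in each of the 3 libraries. Ctse, an endosomal aspartic protease best known from stomach, skin and some immune cells, stood at 0.50, 0.38 and 0.83 TPM, from 98, 58 and 94 counts. Its level was therefore low but above the floor of 3 counts in every library. The ratio of Ctsd to Ctse was 7684, 10268 and 5567.

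Among the cysteine proteases, Ctsb, which has both endopeptidase and dipeptide-removing activity, stood at 2350, 2457 and 3482 TPM, or 2763 ± 625 TPM. Its gene-level TPM was highest in replicate 3, where its CPM (counts scaled by library size, with edgeR's TMM factors) was lowest, at 20039, 19652 and 18794 in the same order. The gene-level TPM includes a short transcript, Ctsb-202, whose values are given below. The lowest Ctsd TPM lay above the highest Ctsb TPM, and Ctsd exceeded Ctsb 1.63-, 1.59- and 1.33-fold. In CPM, which does not take length into account, Ctsd was the lower of the pair, at 14006, 13304 and 12875.

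Ctss, the protease that trims the invariant chain in antigen-presenting cells and stays active at neutral pH, stood at 779, 907 and 1103 TPM, or 929 ± 163 TPM, in rank 20. It was the second of the cysteine cathepsins, 3.02-, 2.71- and 3.16-fold below Ctsb. These folds include the short transcript Ctsb-202. Over protein-coding transcripts alone, Ctsb stood at 2211, 2316 and 2688 TPM, and the fold was smallest, not largest, in replicate 3. Ctsz, a carboxypeptidase also called cathepsin X, stood at 476, 479 and 586 TPM, in rank 44. Ctsa, the serine carboxypeptidase that also protects neuraminidase 1 and beta-galactosidase in a lysosomal complex, came next at 350, 379 and 417 TPM. The ranges of Ctsz and Ctsa over the libraries did not overlap, and Ctsz was the higher in each, 1.34 ± 0.07-fold.

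Ctsl, a broad endopeptidase that trims the invariant chain in thymic epithelium, stood at 164, 244 and 204 TPM, or 204 ± 40.0 TPM, and was highest in replicate 2. Ctss exceeded Ctsl 4.75-, 3.72- and 5.40-fold. Ctsh, an aminopeptidase, stood at 104, 127 and 157 TPM. The gap between these neighbours was narrow, since the lowest Ctsl value was 163.8 TPM and the highest Ctsh value 156.9 TPM. These came from different libraries, replicates 1 and 3, and Ctsl was the higher in each of the 3.

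Ctsc, also called dipeptidyl peptidase I, removes dipeptides and activates the serine proteases of granules. It stood at 47.9, 48.2 and 92.9 TPM, with replicate 3 apart from the other libraries. Ctsk, the collagen-degrading protease of osteoclasts, stood at 0.83, 1.28 and 1.36 TPM, from 111, 133 and 105 counts. Between Ctsc and Ctsk the mean level dropped 54.5-fold, the widest step between neighbours in the order. Ctsk and Ctse were the only neighbours whose ranges met, at 0.83 TPM, although Ctsk was the higher in each library.

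Osteoclast markers were read beside Ctsk. Calcr, the calcitonin receptor, and Oscar, an osteoclast receptor, had 0 counts in every library, and Acp5, the tartrate-resistant acid phosphatase, stood at 0.87, 1.25 and 1.48 TPM. Of the 8 listed osteoclast genes, Atp6v0d2, a subunit of the vacuolar proton pump, at 61.2 ± 14.6 TPM and Nfatc1, a transcription factor, at 12.9 ± 3.40 TPM were the 2 at 1 TPM or more in every library. Macrophages also express both of these genes.

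The spread between libraries was small for most of the abundant members, though not for Ctsc and Ctsl. On the scale of log2 CPM, the SD over the 3 libraries ran from 0.05 for Ctsb to 0.40 for Ctse, with a median of 0.09 over the 10 genes. The median was 0.13 over all 12744 genes tested and 0.09 over the 5647 genes whose counts averaged at least 1000. The cathepsin median is not restricted in that way, since it includes Ctsk and Ctse, with 58 to 133 counts per library. Ctsd had an SD of 0.06, Ctsl one of 0.32 and Ctsc one of 0.37. The common biological coefficient of variation over all genes was 15.2%.

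Differences between pairs of libraries were counted as called where the fold of TMM-scaled CPM was over 1.5 in either direction, over the 9 members with a mean count of 100 or more, which leaves out Ctse. None of the 9 was called between replicates 2 and 1, where 4.96% of all genes with such a count were. None of the 9 was called between replicates 3 and 1, where 2.69% of all genes were, with Ctsc just under the limit at 1.4997-fold. Between replicates 3 and 2, 2 of the 9 were called, where 7.87% of all genes were: Ctsc was 1.61-fold higher and Ctsl 1.52-fold lower in replicate 3. These are single libraries of 1 group, and no test applies to them.

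In CPM, Ctsc stood at 223, 208 and 334 in replicates 1, 2 and 3. Replicate 3 was the high one, and both of its main transcripts were higher there. Ctsc-201, the full-length coding transcript, stood at 36.1, 32.01 and 60.2 TPM, and Ctsc-203, a coding transcript with the first exons and another 3′ end, at 9.69, 12.4 and 28.3 TPM. Ctsl stood at 556, 785 and 518 CPM, with replicate 2 the high one. Of the other members with such counts, Ctsk had the widest range on the log2 scale, 2.13 to 3.08 CPM, and Ctsb the narrowest, 18794 to 20039 CPM.

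**Figure D2:**
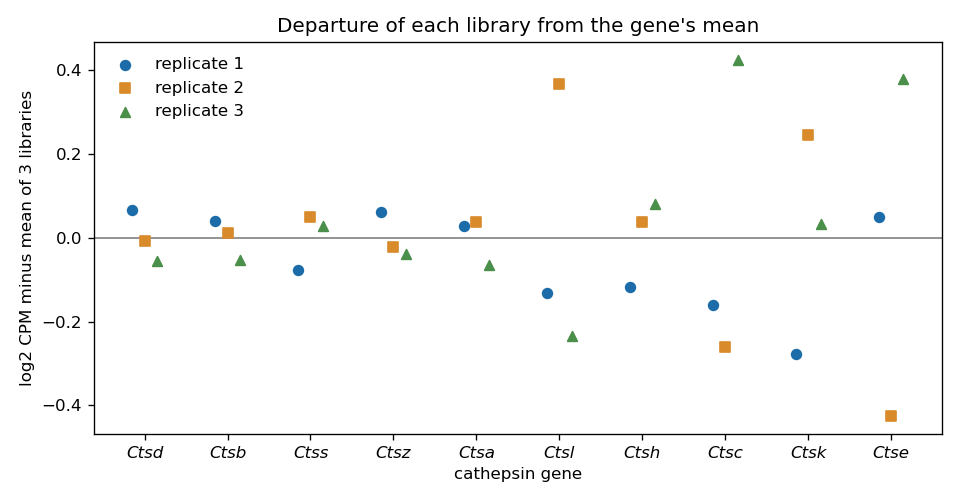
Departure of each library from the mean of the 3 libraries, in log2 CPM, for each cathepsin gene in the order of its level. Ctsd, Ctsb, Ctss, Ctsz and Ctsa stay within 0.08 of their mean, while Ctsl is high in replicate 2 and Ctsc in replicate 3.

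The authors deposited each library in tables made from alignments and in tables made without alignment, and the counts of the cathepsin genes were compared between them. None of the 9 members with a mean count of 100 or more differed by over 1.5-fold from the median ratio of all genes, where 2.00% of genes did. Relative to that median, the ratio ran from 0.94 for Ctsk to 1.03 for Ctss. Gm49369 was called, at 3.69-fold above it. Gene totals of the cathepsins thus differed little between the tables, whereas the division of a gene among its transcripts differed more.

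Ctsd lies on chromosome 7 from 142375911 to 142388038 on the minus strand, and Gm49369 from 142371096 to 142382667 on the same strand. The 2 genes share 808 exonic bases, out of 1023 for Gm49369 and 2351 for Ctsd. The longer Gm49369 transcript has 5 exons within Ctsd and a last exon of 163 bases downstream of it, at chr7:142371148-142371310. Of its words of 31 bases, 79.8% occur in a Ctsd transcript.

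**Figure D3:**
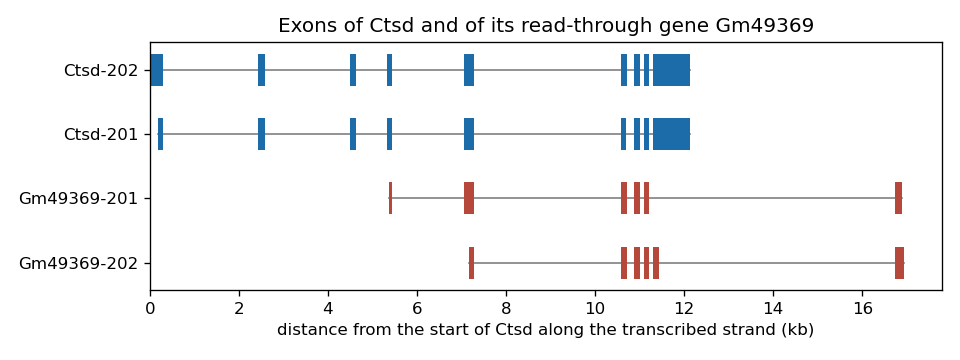
Exons (boxes) of 2 protein-coding transcripts of Ctsd and of both transcripts of Gm49369, by distance in kb from the start of Ctsd along the transcribed strand. The exons of Gm49369 lie within Ctsd exons, some over only a part of them, except the last, which lies beyond the end of Ctsd.

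In the alignment-based tables Gm49369 had 46288, 60042 and 3526 counts in replicates 1, 2 and 3, or 5.97, 9.46 and 0.69% of the counts of Ctsd and Gm49369 together. The alignment-free tables gave it 4061, 22760 and 2753 counts, or 0.50, 3.41 and 0.50%. Replicate 2 was the highest in both kinds of table, replicate 3 was low in both, and replicate 1 was high in the alignment-based table only. Because Gm49369 is annotated as short, its share of the summed TPM was larger, at 15.9, 23.7 and 2.02%.

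The posterior standard deviation of the Ctsd count, as written in the authors' deposited table, was 655, 669 and 357 counts. The difference in the Gm49369 count between the 2 kinds of table was many times that in replicates 1 and 2. Ctsd and Gm49369 summed to 4570, 5112 and 4715 TPM, or 4799 ± 280 TPM, against 4121 ± 433 TPM for Ctsd alone. In counts, the mean sum was 1.06 times the mean of Ctsd alone. In log2 CPM the SD over libraries was 0.06 for Ctsd, 2.13 for Gm49369 and 0.11 for the sum. With Gm49369 added the rank order of the cathepsins in TPM is unchanged, since Ctsd is already the highest on that scale. The lead over Ctsb was narrower in replicate 3 of the alignment-free tables. Scaled there to nuclear protein-coding genes, Ctsd stood at 16174, 16435 and 14531 TPM and Ctsb at 13833, 13770 and 14227 TPM.

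**Figure D4:**
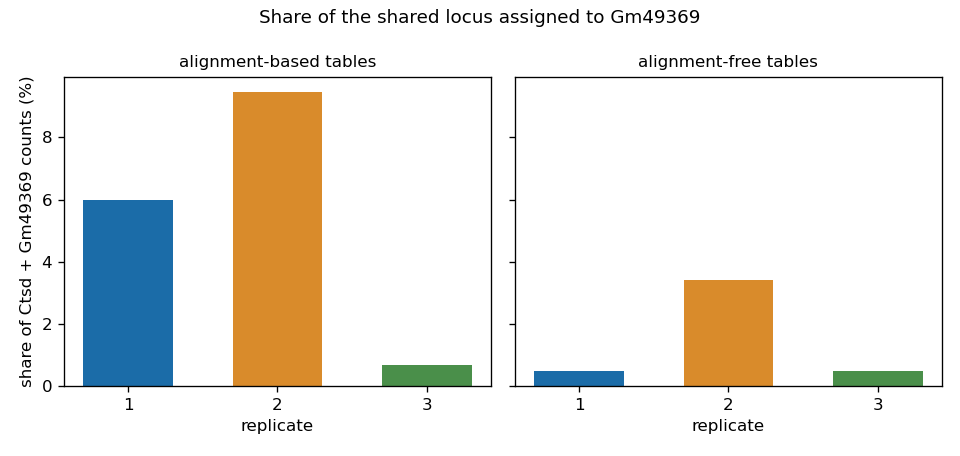
Counts assigned to Gm49369 as a percentage of the counts of Ctsd and Gm49369 together, in replicates 1 to 3, from the alignment-based tables (left) and the alignment-free tables (right). The share in replicate 1 is 5.97% in the one and 0.50% in the other.

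The 10 genes have 52 annotated transcripts, of which 26 are protein-coding and 20 are retained introns. The transcript with the highest mean TPM was the same in both kinds of table for all 10 genes, and it was protein-coding in each. In single libraries the leader could differ: in replicate 2 of the alignment-based tables Ctsh-202, at 63.71 TPM, was above Ctsh-201, at 60.37 TPM. In the alignment-free tables, the leader by mean TPM held from 56.8 ± 5.48% of the gene's TPM for Ctsc to 100% for Ctsk and Ctsz. Ctsk and Ctsz have 1 annotated transcript each.

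For Ctsd, Ctsd-202, with the 18 bases in exon 6, held 99.7, 98.9 and 99.0% of the TPM in the alignment-free tables. The alignment-based tables gave it 65.5, 63.6 and 79.1%, and gave Ctsd-201, without these bases, 34.3, 36.2 and 20.6%. Every library was lower for Ctsd-202 in the alignment-based table. The share of Ctsd transcripts that skip the 18 bases is therefore not fixed by these files, though Ctsd-202 is the larger form in both.

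For Ctss, both kinds of table gave nearly the same division: Ctss-202, without the 3 bases, held 86.6, 85.8 and 86.8% in the alignment-based tables and 86.6, 85.8 and 86.9% in the alignment-free tables. The 3 libraries lay within about 1 percentage point of each other. For Ctsa, the coding transcript Ctsa-202 held 59.3 ± 2.37% and 58.7 ± 2.95%.

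For Ctsh, Ctsh-202, which lacks exon 3, made up 38.2, 50.02 and 37.6% of Ctsh TPM in the alignment-based tables and 21.6, 32.3 and 22.6% in the alignment-free tables. Replicate 2 was the highest in both, and every alignment-based value was above its alignment-free one. Counted over its protein-coding transcripts alone, Ctsh stood at 62.2, 60.7 and 94.8 TPM, in place of 104, 127 and 157 TPM over all transcripts.

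For Ctsb, Ctsb-202, the form with 90 intronic bases, stood at 135, 127 and 790 TPM in the alignment-based tables, or 5.76, 5.17 and 22.7% of the gene. In counts it held 8162, 5981 and 27950, or 0.78, 0.70 and 3.76% of the gene, so replicate 3 was the high library in both units. The alignment-free tables gave it 37.0, 33.0 and 41.3% of the TPM, so there replicate 3 was not set apart. Its counts there were 77119, 55325 and 69942, or only 6.93, 6.09 and 8.62% of the gene's counts. Ctsb-202 has 801 bases against 4743 for Ctsb-201, so its share is larger in TPM than in counts. Ctsb over its protein-coding transcript alone stood at 2211, 2316 and 2688 TPM, a narrower range than that of the whole gene.

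For Ctsl, Ctsl-201 held 95.7 ± 1.36% in the alignment-based tables and 76.2 ± 2.57% in the alignment-free tables, where Ctsl-203 and Ctsl-204, also protein-coding, took 10.3 ± 3.20% and 10.7 ± 6.09%. Ctsc-203 held 25.4 ± 5.09% of Ctsc in the alignment-based tables and 22.1 ± 5.13% in the alignment-free tables. In both, it was highest in replicate 3.

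**Figure D5:**
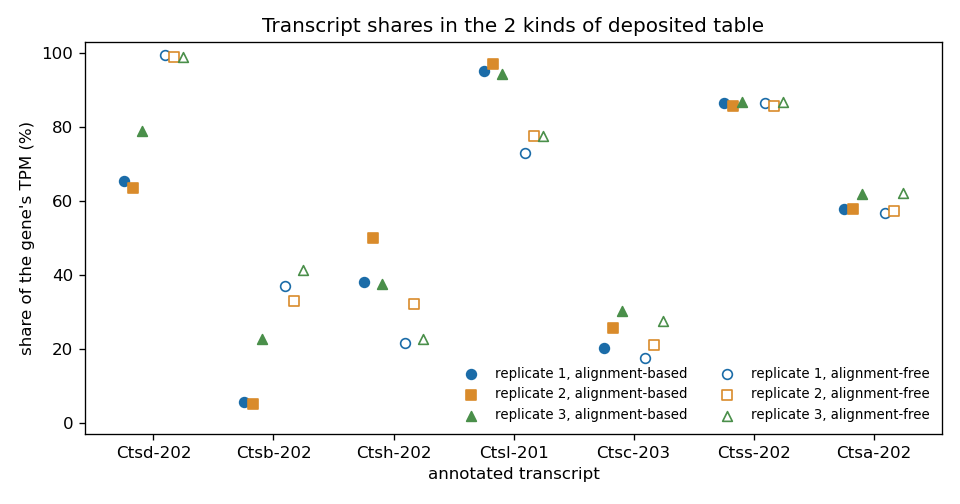
Share of the gene's TPM on 7 annotated transcripts, with filled symbols for the alignment-based and open symbols for the alignment-free tables, in replicates 1 (circles), 2 (squares) and 3 (triangles). The symbols of Ctss-202 and Ctsa-202 lie level between the tables, while those of Ctsd-202, Ctsb-202, Ctsh-202 and Ctsl-201 do not.

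Other genes overlap members as well, and the strandedness of the counting is not given. Pltp, which encodes phospholipid transfer protein, lies on the opposite strand of Ctsa, shares 495 exonic bases with it and stood at 234 ± 19.6 TPM. Fdft1, opposite to Ctsb over 774 exonic bases, stood at 3.89 ± 1.10 TPM, and the antisense gene Gm47123 within Ctsl at 0.16 ± 0.15 TPM. The pseudogene Gm49230 within Ctsl had 0 counts in every library. These partners of Ctsb and Ctsl were far below the cathepsin they overlap, and Pltp was of the same order as Ctsa.

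The other listed cathepsins were mostly not detected. Of 13 genes, 10 had 0 counts in every library, including the placental group and Ctsw, known from T and NK cells. A count of 0 allows up to 3 counts, or 0.0566, 0.0689 and 0.0777 CPM without TMM scaling. Ctso stood at 8.96 ± 1.06 TPM and Ctsf, a lysosomal cysteine protease, at 3.63 ± 0.90 TPM, below the 8 detected members and above Ctsk. Ctsg, the serine protease of neutrophil granules, had 5, 15 and 7 counts.

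Of 13 listed inhibitors, 5 reached 1 TPM in every library. Cstb, which encodes the cytosolic inhibitor cystatin B, stood at 311 ± 63.6 TPM, Cst3, the secreted cystatin C, at 284 ± 67.6 TPM, and Serpinb6a, a cytosolic serpin, at 244 ± 37.8 TPM. Each mean lay between those of Ctsl and Ctsa, although in replicate 2 Cst3 at 236.6 TPM and Serpinb6a at 222.3 TPM were below Ctsl at 243.8 TPM. Ctla2b, related to the propeptide of cysteine cathepsins, stood at 12.4 ± 3.58 TPM, and Cst7, cystatin F, at 2.58 ± 0.65 TPM. Stfa2, Stfa3 and Serpinb3a had 0 counts in every library.

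All 14 listed genes of lysosomal sorting and all 7 listed partners reached 1 TPM in every library. M6pr, the cation-dependent mannose 6-phosphate receptor, stood at 72.0 ± 11.1 TPM and Scarb2, which carries glucocerebrosidase, at 41.1 ± 6.57 TPM. Vps26a and Vps35, subunits of the retromer that returns receptors from endosomes, stood at 46.5 ± 9.55 and 42.2 ± 8.55 TPM. Among the partners, Psap, the precursor of the saposins, stood at 5085 ± 269 TPM, above Ctsd in each library. Grn, the precursor of the granulins, stood at 735 ± 98.5 TPM, Lgmn, the protease that cuts several cathepsins into separate heavy and light chains, at 600 ± 51.5 TPM, and Tpp1, tripeptidyl peptidase 1, at 82.4 ± 13.6 TPM.

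None of the 10 listed granule serine proteases, which Ctsc is known to activate in other cells, reached 1 TPM in any library. The highest, Prtn3, stood at 0.58 ± 0.25 TPM, from 43, 43 and 13 counts, and 5 of the 10 had 0 counts in every library. The 6 listed regulators of lysosomal genes all reached 1 TPM. Spi1, the myeloid factor PU.1, stood at 67.4 ± 17.8 TPM, Tfe3 at 26.9 ± 4.81 TPM and Tfeb at 11.6 ± 1.40 TPM. Tfec stood at 10.3 ± 3.02 TPM, Mitf at 9.86 ± 1.93 TPM and Zkscan3, the lowest of the 6, at 5.41 ± 1.12 TPM.

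Tfeb, Tfe3, Tfec and Mitf belong to 1 family, whose members bind motifs built on CACGTG. RefSeq promoters of build GRCm38.p6, from 250 bases before to 50 bases after a start, were given for 7 of the 10 members, in 8 entries, and not for Ctsb, Ctse and Ctsh. CACGTG, which reads the same on both strands, occurred in the promoters of 3 members, with 2 matches in Ctsd, 2 in 1 of the 2 Ctsa entries and 1 in Ctsl. Of all 32851 promoters of 300 bases, 7.15% held it. The longer TCACGTGA, which contains CACGTG, had 2 matches in the same Ctsa entry and 1 in Ctsd, against 0.974% of all promoters. RefSeq and GENCODE starts differ here. The TCACGTGA match of Ctsd lies within exon 1 of Ctsd-202, and the Ctsl window and that Ctsa window lie wholly within the GENCODE genes. Ctss, Ctsz, Ctsc and Ctsk had no match in these windows, which says only that the letters are not there.

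For each member, the nuclear protein-coding gene nearest in level over the 3 libraries was found by Euclidean distance of log2(TPM + 0.1). Ctsz lay nearest to Akr1a1, an aldehyde reductase, at a distance of 0.08, and Ctsa to Pld3, a lysosomal exonuclease, at 0.14. Ctss lay nearest to Spp1, osteopontin, at 0.18, Ctsc to Srgn, the proteoglycan of secretory granules, at 0.22, and Ctsl to Lcp1, an actin-bundling protein, at 0.25. Ctsb lay nearest to Selenop, selenoprotein P, at 0.28, and Ctsh to Apobec1, an RNA-editing deaminase, at 0.10. The distance was largest for Ctsd, 0.54 to Lyz2, which stood at 4141, 4025 and 6668 TPM and was farthest from Ctsd in replicate 3. With 3 libraries of 1 group, such nearness describes level and little else.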

How the data were processed

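Cytosolic RNA of lipid A-stimulated macrophages was measured in 3 libraries of 1 group. The authors deposited, per library, alignment-based gene and transcript tables with expected counts and TPM, and alignment-free transcript tables with estimated counts and TPM, per the file headers. The deposited expected counts are not normalized, and the deposited TPM are scaled over all targets of a table. Per the text files deposited with each library, the assembly is mm10 and the annotation GENCODE M21. The versions of the tools the authors used, and strandedness, were not given in the sources used here.

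Alignment-free transcripts were summed to genes. CPM over 12744 genes were computed with edgeR 4.0.16 under R 4.3.3 (prior count 2) from rounded expected counts, after filterByExpr and TMM scaling. DESeq2 1.42.0 size factors were an alternative. With 1 group there is no test between conditions, and values are given per library and as mean ± SD (n = 3). The floor of a library is 3 counts, which covers counting error alone. Other tools were Python 3.11.15 and matplotlib 3.10.9. Sequences come from the GENCODE M21 transcripts, and promoters from RefSeq.

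The members, lists and settings were chosen with earlier results of these data known, and the sequence comparisons after the tables were seen. Named genes are the 10 members and Gm49369, per list the 4 of highest and up to 3 of lowest mean TPM, and the nearest gene of each member. Not every such gene is printed.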

Additional observations from a re-analysis of the deposited data

How the results depend on the processing

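The summed share of the 10 genes, 3.63% of the TPM of nuclear protein-coding genes, became 3.83% in the alignment-free tables, 4.49% in counts, 3.93% with Gm49369 added and 0.911% over all targets. Leaving out each replicate in turn gave 3.58 to 3.66%. Ctsd, at 4121 TPM, stood at 1235 TPM in the alignment-free tables and 16512 TPM when scaled to nuclear protein-coding genes. With Gm49369 added the sum was 4799 TPM. Both results with Gm49369 added use its TPM, which is scaled to its own short transcripts. In counts, the mean sum was only 1.06 times the mean of Ctsd. In the alignment-free tables nuclear protein-coding genes took only 10.7, 6.27 and 6.54% of all TPM in replicates 1, 2 and 3. Scaled to these genes, the alignment-free Ctsd level was 15714 TPM, close to the 16512 TPM of the alignment-based tables. The median share of the leading transcript was 81.3% in the alignment-free and 87.8% in the alignment-based tables. The median SD over libraries, 0.09 in log2 CPM, was 0.29 on log2(TPM + 0.1) and 0.23 on log2(TPM + 1), scales that keep the shift of coding genes in replicate 3. The 2 calls between replicate pairs became 0 at 2-fold, 3 with DESeq2 size factors and 3 when the mean count had to reach only 20. The number of detected members was 8 or 9 under each alternative run. Without replicate 1, Ctsk also reached 1 TPM in each library. No paired analysis was possible because there is a single group. The main limits are that Ctsk and Ctse rest on 58 to 133 counts per library, that 3 libraries with 1 donor record give little hold on biological spread, and that the division of reads between overlapping transcripts differs between the deposited tables.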
